A study of Mus musculus with 8 samples.

Results

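Inorganic phosphate handling was followed through 8 genes in RNA from micro-dissected organ of Corti of newborn mice (P0): the importers Slc20a1 and Slc20a2, the exporter Xpr1, the ectonucleotide pyrophosphatase genes Enpp1, Enpp2, Enpp3 and Enpp5, and the phosphatase gene Alpl. They were taken by symbol from the 41079 genes of the deposited count tables, and all 8 were found and passed the low-count filter. Slc20a1 and Enpp3 brought the set together because they had been called higher in an earlier analysis of these same libraries, and the other 6 were added by family or role. Their difference between groups is therefore given as a description.

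Total RNA depleted of ribosomal RNA was sequenced from 4 wildtype libraries and from 4 libraries labelled Prox1 knockout, in which Cre from Emx2-cre acts on a floxed Prox1 allele. The labels do not say whether the wildtype animals carried the Cre or the floxed allele, nor how many animals gave a library. P-values therefore measure the spread between these libraries, which may be technical. Total counts ran from 32863533 to 42318233 in wildtype and from 29908965 to 32613549 in the labelled-knockout libraries. Prox1, the targeted gene, held 109, 114, 106 and 115 CPM (counts scaled to library size) in wildtype libraries 1 to 4. It held 147, 137, 138 and 134 CPM in the labelled-knockout libraries in the same order. Its fitted log2 fold change was 0.33 ± 0.05 (SE; edgeR, adjusted p = 0.0298). It lay between 0.28 and 0.34 over 19 other settings, and its call was lost with any 1 library left out except labelled-knockout library 4 (edgeR, adjusted p 0.0599 to 0.180). Every library labelled knockout lay above every wildtype library, so the gene-level counts do not show the loss that the label names. They cannot check the label either, because reads of the floxed part alone were not analysed here, and groups are named as labelled. Emx2, whose locus drives the Cre, had 16.2 ± 1.61 CPM in wildtype against 19.7 ± 2.39 (SD, n = 4 each; edgeR, adjusted p = 0.607). All 10 hair cell markers and all 9 supporting cell markers examined were counted and tested, with summed levels of 541 to 663 and 1210 to 1305 CPM in wildtype. In the labelled-knockout libraries the sums were 569 to 621 and 1198 to 1289 CPM, overlapping wildtype in both lists.

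Cells take up inorganic phosphate with sodium through Slc20 carriers and release it through Xpr1, the exporter whose cytoplasmic domain senses inositol pyrophosphates. Outside the cell, Enpp enzymes cut nucleotides and related phosphodiesters. Enpp1 makes pyrophosphate, an inhibitor of mineral growth, and tissue-nonspecific alkaline phosphatase, the product of Alpl, splits pyrophosphate into phosphate. Around the newborn cochlea these enzymes are best known from the cartilage and bone of the otic capsule, while extracellular nucleotides act as signals within the sensory epithelium.

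Of the 8 members, 5 matched the RefSeq promoter table of GRCm38.p6 by symbol, and Slc20a2, Enpp2 and Enpp5 did not. The 250 bases before an annotated start are shown for the pair with higher counts in the labelled-knockout libraries, and for Enpp1, whose gene lies next to Enpp3 on the same strand and which was not called. The authors counted on GRCm39, so these coordinates belong to the older build alone. Capitals mark the TATA box letters TATAAA, the CCAAT box, the GC box letters GGGCGG and the E-box letters CACGTG on either strand, and the marked stretches do not overlap one another. The sequences read 5′ to 3′ along the gene.
Slc20a1 (chr2:129198523-129198772, + strand, the first of 2 listed starts): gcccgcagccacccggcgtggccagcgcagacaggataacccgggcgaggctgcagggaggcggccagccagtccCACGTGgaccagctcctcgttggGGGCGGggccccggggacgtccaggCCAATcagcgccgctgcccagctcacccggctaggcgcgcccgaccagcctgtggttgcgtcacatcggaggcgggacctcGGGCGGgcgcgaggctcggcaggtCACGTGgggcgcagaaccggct
Enpp3 (chr10:24836196-24836445, - strand): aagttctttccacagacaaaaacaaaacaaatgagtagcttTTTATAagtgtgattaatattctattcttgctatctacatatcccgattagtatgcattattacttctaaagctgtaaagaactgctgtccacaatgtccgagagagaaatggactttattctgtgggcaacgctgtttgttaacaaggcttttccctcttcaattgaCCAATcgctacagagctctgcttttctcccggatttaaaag
Enpp1 (chr10:24712160-24712409, - strand): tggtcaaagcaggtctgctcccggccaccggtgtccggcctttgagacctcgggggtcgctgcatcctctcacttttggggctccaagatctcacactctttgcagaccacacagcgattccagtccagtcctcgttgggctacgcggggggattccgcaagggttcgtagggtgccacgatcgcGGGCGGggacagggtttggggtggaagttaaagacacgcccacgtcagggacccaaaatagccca
The Slc20a1 window had a GC content of 75.2% and 29 CG dinucleotides, more than 93.2% of 32851 RefSeq windows of that length, whose median was 6. It held CACGTG at 2 places, GGGCGG at 2 and CCAAT at 1. The Enpp3 window had a GC content of 36.8% and 5 CG dinucleotides, with TATAAA on the opposite strand and 1 CCAAT. The Enpp1 window, at 61.2% GC and 17 CG dinucleotides, held GGGCGG at 1 place and none of the other 3 motifs. Over all windows, CCAAT was found in 33.8%, GGGCGG in 32.7%, TATAAA in 12.4% and CACGTG in 6.02%. In the windows shown, the pair with higher counts shared CCAAT and no other of the 4 motifs. The window of the second Slc20a1 start, not shown, had a GC content of 50.8% and 5 CG dinucleotides. It held GGGCGG at 1 place and no CCAAT, and shared none of the 4 motifs with the Enpp3 window.

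Levels were compared between genes as CPM per kilobase of merged exons in GENCODE M21. Enpp2, which encodes autotaxin, the secreted enzyme that makes lysophosphatidic acid, was the most abundant member, at 28.9 ± 3.24 CPM per kb in wildtype (SD, n = 4). Enpp5, a membrane-bound member of the family, followed at 15.3 ± 1.25 CPM per kb. Then came Slc20a2 at 10.5 ± 1.30 and Xpr1 at 8.83 ± 0.53 CPM per kb, whose wildtype ranges overlapped (8.75 to 11.7 and 8.24 to 9.31). Enpp1 stood at 7.09 ± 0.84 and Slc20a1 at 4.78 ± 0.32 CPM per kb. Alpl, at 2.27 ± 0.28, and Enpp3, at 1.37 ± 0.12 CPM per kb, were lowest. Between the other neighbours in this order the 4 wildtype libraries of one gene all lay above those of the next. With the longest coding transcript as the length in place of merged exons, Xpr1 (21.1 CPM per kb) stood above Slc20a2 (18.3 CPM per kb), and the other members kept their order.

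**Figure D1:**
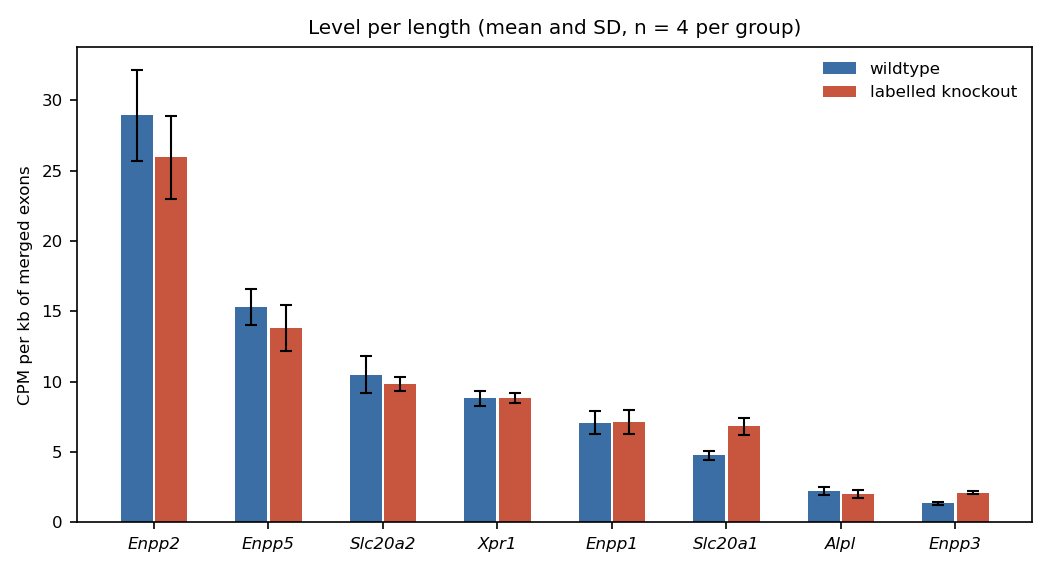
Mean CPM per kilobase of merged exons (vertical axis) for the 8 members in wildtype (blue) and in the labelled-knockout libraries (red), with SD as whiskers, n = 4 per group. Enpp2 is highest at 28.9 CPM per kb in wildtype and Enpp3 lowest at 1.37.

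In the labelled-knockout libraries the means kept this order except that Enpp3 (2.11 CPM per kb) stood above Alpl (2.04 CPM per kb). Slc20a1 reached 6.38 to 7.72 CPM per kb and overlapped Enpp1 (6.54 to 8.40), and Enpp3, at 1.97 to 2.25 CPM per kb, overlapped Alpl (1.77 to 2.42). Xpr1 (8.34 to 9.20) also overlapped Enpp1 there, and no longer overlapped Slc20a2 (9.35 to 10.4). The order of these pairs depended on the length used: with the longest coding transcript, Slc20a1 (11.5 CPM per kb) stood above Enpp1 (10.8) and Alpl (3.26) above Enpp3 (2.99), with overlapping ranges in both pairs. Slc20a1 and Enpp3 were chosen for being higher in these libraries.

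Among the importers, Slc20a1 was higher in the labelled-knockout libraries and Slc20a2 was not. Slc20a1, a carrier that is also the entry receptor of several retroviruses, had 26.5, 27.8, 24.2 and 28.1 CPM in wildtype libraries 1 to 4. It had 43.1, 35.6, 36.9 and 37.0 CPM in the labelled-knockout libraries in the same order. The groups did not overlap, and labelled-knockout library 1 stood above the other libraries of its group. Group means were 26.7 ± 1.80 and 38.2 ± 3.35 CPM (SD, n = 4 each), a ratio of 1.43 and a log2 fold change of 0.52 ± 0.08 (SE of the edgeR fit).

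Slc20a2, the second carrier and a gene mutated in familial brain calcification, had 72.5, 54.4, 70.2 and 64.2 CPM in wildtype libraries 1 to 4. In the labelled-knockout libraries in the same order it had 62.3, 58.1, 59.3 and 64.8 CPM. The groups overlapped: wildtype library 2 was the lowest of all 8, and labelled-knockout library 4 also lay above wildtype library 4. The wildtype spread (12.4% of the mean) was wider than that of the labelled-knockout libraries (4.93%). The log2 fold change was -0.09 ± 0.08 (SE) (Benjamini-Hochberg adjusted p = 0.742 over all 20581 genes tested, edgeR quasi-likelihood). Taken per kilobase of merged exons, Slc20a1 made up 27.7 to 36.3% of the summed level of both importers in wildtype and 38.9 to 43.5% in the labelled-knockout libraries. The sum itself was 13.7 to 16.4 CPM per kb in wildtype and 15.7 to 17.7 CPM per kb in the labelled-knockout libraries, and these ranges overlapped. Slc20a1 was chosen for its higher counts in these libraries, so its higher share is no further result.

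The exporter gene Xpr1 had nearly equal means in both groups. Its values were 166, 165, 153 and 147 CPM in wildtype libraries 1 to 4 and 165, 149, 162 and 157 CPM in the labelled-knockout libraries in the same order. The ranges covered almost the same span. Its means were 158 ± 9.41 and 158 ± 6.72 CPM (SD, n = 4 each). The log2 fold change of 0.00 ± 0.06 (SE) is the smallest in size among the members, and its SE is also the lowest of the 8, on 4852 to 7178 counts per library (edgeR, adjusted p = 0.996).

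**Figure D2:**
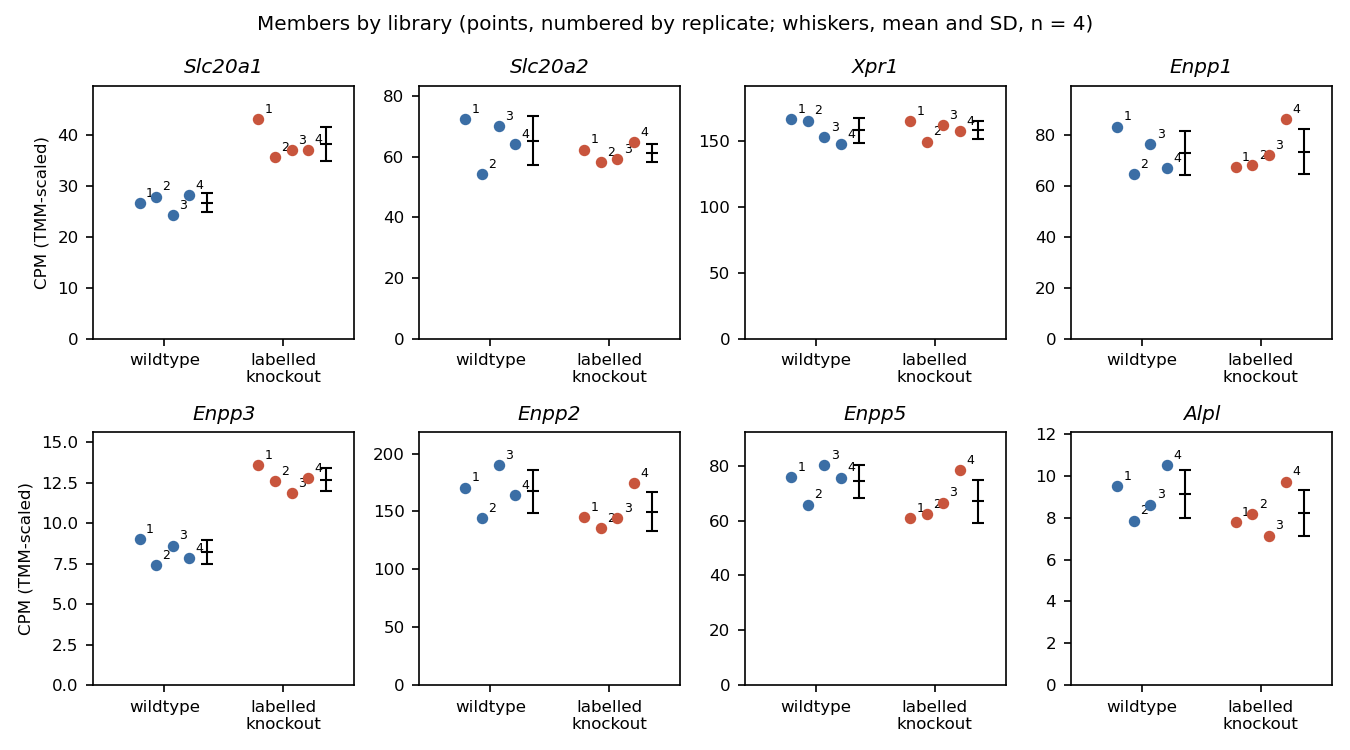
CPM (vertical axes, from 0, TMM-scaled) of each member in the 4 wildtype (blue) and 4 labelled knockout (red) libraries, numbered by replicate, with mean and SD as whiskers. For Slc20a1 and Enpp3 the red points all lie above the blue ones, and for the other 6 members the groups overlap.

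Among the Enpp genes, Enpp3 was higher in the labelled-knockout libraries, and Enpp1, Enpp2 and Enpp5 were not called. Enpp3, an ectoenzyme that cuts extracellular nucleotides and is used as a surface marker of basophils and mast cells, had 9.0, 7.41, 8.61 and 7.86 CPM in wildtype libraries 1 to 4. It had 13.6, 12.6, 11.8 and 12.8 CPM in the labelled-knockout libraries in the same order. The groups did not overlap, and the gap between them was wider than the range within either. Mean levels were 8.22 ± 0.72 and 12.7 ± 0.71 CPM (SD, n = 4 each), a ratio of 1.54 and a log2 fold change of 0.63 ± 0.09 (SE). Counts were low, from 263 to 423 per library, and counting alone gives a spread of 5.71% in wildtype and 4.96% in the labelled-knockout libraries. The observed spreads were 8.73% and 5.59%. These counting errors take each read as 1 molecule, which libraries without molecular identifiers do not ensure.

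Mast cell and basophil markers were counted at low levels in both groups. The 7 listed genes summed to 4.19 to 6.36 CPM (wildtype) and 4.10 to 5.30 CPM (labelled knockout). Of them 5 passed the low-count filter, with Tpsb2 and Cma1, mast cell protease genes, at 431 and 377 counts over all libraries. The IgE receptor genes Ms4a2 and Fcer1a, at 10 and 3 counts, did not pass. None of the 5 was called by edgeR, and their part in the level of Enpp3 was not tested.

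Enpp1, which makes extracellular pyrophosphate from ATP, had 83.1, 64.5, 76.2 and 66.9 CPM in wildtype libraries 1 to 4. In the labelled-knockout libraries in the same order it had 67.1, 67.9, 71.9 and 86.1 CPM. The groups overlapped over nearly their whole range, with wildtype library 1 and labelled-knockout library 4 the highest. The log2 fold change was 0.01 ± 0.09 (SE) (edgeR, adjusted p = 0.981). Taken per kilobase of merged exons, Enpp3 made up 15.6 to 16.7% of the summed level of Enpp1 and Enpp3 in wildtype and 20.2 to 25.6% in the labelled-knockout libraries. Enpp3 too was chosen for its higher counts, so this higher share restates that choice.

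Enpp2 had 171, 144, 190 and 164 CPM in wildtype libraries 1 to 4 and 145, 135, 144 and 175 CPM in the labelled-knockout libraries in the same order. Library 4 labelled knockout lay within the upper wildtype values, and the other 3 of its group near or below wildtype library 2. The log2 fold change was -0.16 ± 0.09 (SE) (edgeR, adjusted p = 0.662). Enpp5 likewise had its highest labelled-knockout value in library 4, with 75.9, 65.8, 80.1 and 75.6 CPM in wildtype libraries 1 to 4 and 60.8, 62.4, 66.6 and 78.3 CPM in the labelled-knockout libraries in the same order. Its log2 fold change was -0.15 ± 0.08 (SE) (edgeR, adjusted p = 0.654).

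Alpl, whose enzyme removes pyrophosphate, had 9.52, 7.87, 8.64 and 10.5 CPM in wildtype libraries 1 to 4 and 7.80, 8.18, 7.15 and 9.74 CPM in the labelled-knockout libraries in the same order. The groups overlapped, with labelled-knockout library 4 above 3 of the 4 wildtype libraries. Its log2 fold change of -0.15 ± 0.13 (SE) was not called (edgeR, adjusted p = 0.730). With 230 to 368 counts per library it had the widest SE of the members.

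In all, 2 of 8 members were called higher at an adjusted p of 0.05, beside 0.034% of all tested genes, and 0 of 8 were called lower, beside 0.0583% (0.0923% in either direction). Members whose groups did not overlap numbered 2 higher, beside 2.07% of all tested genes, and 0 lower, beside 1.62% (3.69% in either direction). Nothing is read from these counts, because the same contrast chose Slc20a1 and Enpp3. The count of 0 members called lower was also 0 with DESeq2, with limma-voom and at an unadjusted p under 0.05. The median log2 fold change of the members was -0.05, and that of all tested genes 0.00. In the authors' deposited table, Slc20a1 had a log2 fold change of 0.51 with an adjusted p of 3.26e-06 by DESeq2, and Enpp3 one of 0.62 with 5.73e-06. The other 6 members had adjusted p-values between 0.721 and 0.994 by DESeq2 in the authors' deposited table.

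Direction and size held for Slc20a1 and Enpp3 over 19 other settings, while the calls did not. Both genes were chosen for being higher in these same libraries, with groups that did not overlap. Refits of the same counts could therefore hardly turn the direction, and its holding is no further evidence. The log2 fold change of Slc20a1 lay between 0.45 and 0.55 and that of Enpp3 between 0.58 and 0.77. By edgeR's quasi-likelihood test the adjusted p was 0.0257 for Slc20a1 and 0.0285 for Enpp3. Slc20a1 was not called without wildtype library 1 or 3 or without labelled-knockout library 1, 2 or 3 (edgeR, adjusted p 0.0519 to 0.119). Enpp3 was not called without any 1 of the 8 libraries (edgeR, adjusted p 0.0571 to 0.172).

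**Figure D3:**
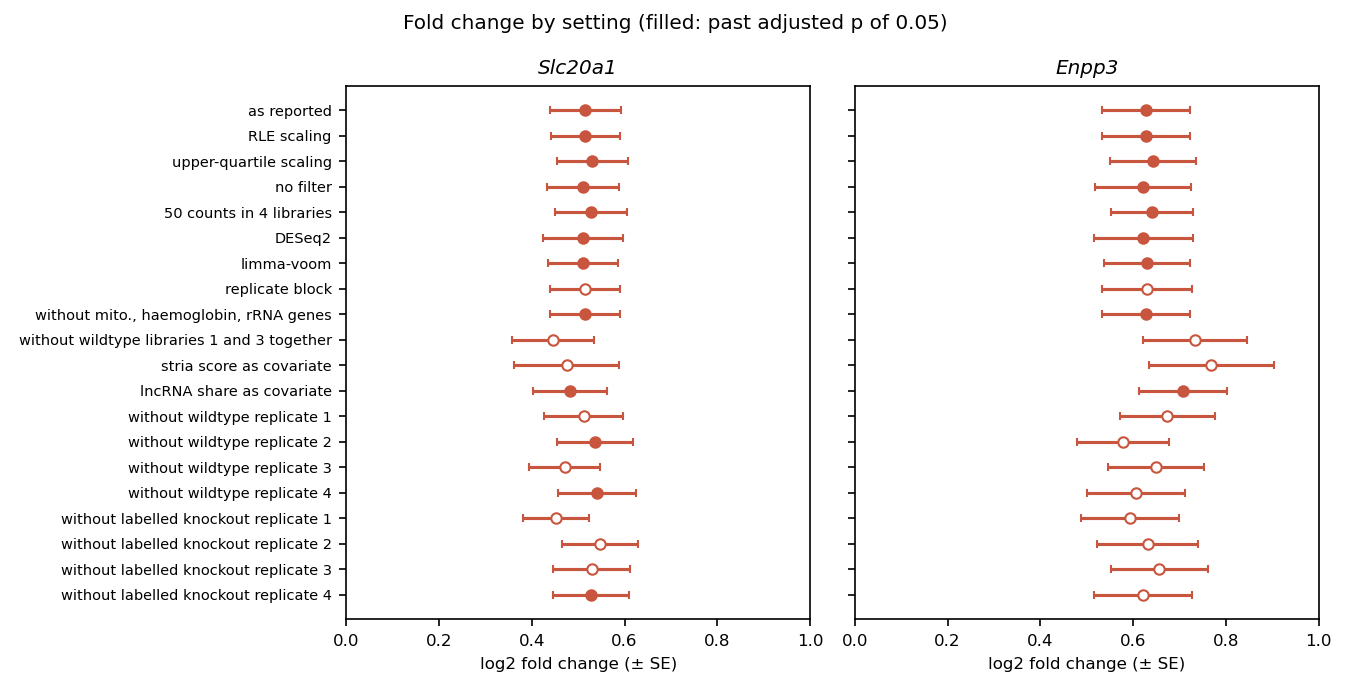
Log2 fold change with SE (horizontal axis) of Slc20a1 and Enpp3 under each setting (vertical axis), with filled points where the adjusted p was under 0.05. All points lie above 0, between 0.45 and 0.55 for Slc20a1 and between 0.58 and 0.77 for Enpp3, and many are open.

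Markers of the stria vascularis, the secretory epithelium of the lateral wall, ran with the groups in part. The 6 marginal cell markers summed to 101 to 166 CPM (wildtype) and 82.6 to 97.3 CPM (labelled knockout), without overlap. Atp1b2 alone gave 86.1 CPM of their wildtype mean of 128 CPM. The 8 melanocyte markers summed to 29.8 to 55.6 and 27.2 to 30.3 CPM, with overlap. The mean log2 CPM of both lists also overlapped, at 1.68 in wildtype library 4 and 1.86 in labelled-knockout library 1. Of the 12 tested markers of these lists 0 were called by edgeR and 0 by limma-voom, while DESeq2 called Kcne1 and Pmel lower, and 8 had an unadjusted p under 0.05. With the mean log2 CPM of both lists as a covariate, the log2 fold change was 0.48 ± 0.11 (SE) for Slc20a1 and 0.77 ± 0.14 for Enpp3. Neither was called there (edgeR, adjusted p = 0.853 and 0.216). Without the wildtype libraries 1 and 3, whose stria scores were the highest of the 8, the values were 0.45 ± 0.09 and 0.73 ± 0.11, again not called (edgeR, adjusted p = 0.321 and 0.0674). In bulk tissue, fewer cells of a type and less RNA per cell cannot be told apart, and the part of stria cells in these differences was not tested beyond those fits.

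Genes beside Slc20a1 and Enpp3 on the chromosome, picked by position after the values of the members were known, were not called. Around Slc20a1, the tested protein-coding neighbours Polr1b, Chchd5, Ckap2l and Sirpa had log2 fold changes of -0.04 ± 0.08, -0.09 ± 0.11, -0.02 ± 0.09 and -0.02 ± 0.06 (SE). Around Enpp3 lie Enpp1 and Med23 (0.03 ± 0.07), and beyond them Ccn2 (-0.33 ± 0.16) and Arg1 (0.38 ± 0.28), which had under 1 CPM in both groups. In GENCODE M21, transcripts on the opposite strand cover 8.10% (9830144P21Rik) and 5.02% (Gm4430) of the exon bases of Slc20a1, and no other gene overlaps Enpp3. The tables hold no row under either name, and whether the counting used strand is not given in the sources used here. Opposite-strand genes also cover 5.97% of the exon bases of Enpp2 (Gm26684, 4 to 12 counts per library) and 1.53% of those of Slc20a2 (Smim19).

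In several libraries most members deviated from their group mean in one direction. Wildtype library 1 had 1 of 8 members below its group mean and wildtype library 2 had 6, while labelled-knockout libraries 2 and 3 had 7 each and library 4 had 2. Wildtype library 2 was the lowest of its group for 6 of the 8 members, all but Slc20a1 and Xpr1. Library 4 labelled knockout was the highest of its group for 5, namely Slc20a2, Enpp1, Enpp2, Enpp5 and Alpl. In that library Enpp1, Enpp2, Enpp5 and Alpl lay above their group mean by 0.24, 0.23, 0.23 and 0.25 on the log2 scale. Slc20a1 lay at -0.04 there and Xpr1 at -0.01.

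The share of counts in long noncoding RNA (lncRNA) genes ran the other way. It was 1.99, 2.61, 1.67 and 2.36% in wildtype libraries 1 to 4 and 2.51, 2.77, 2.97 and 2.03% in the labelled-knockout libraries in the same order. It was thus highest among wildtype in library 2 and lowest among the labelled-knockout libraries in library 4. With this share as a covariate, in a fit added once the data had been seen, the fitted difference (log2) was -0.01 ± 0.05 (SE) for Enpp2, -0.04 ± 0.07 for Enpp5, -0.06 ± 0.13 for Alpl and 0.03 ± 0.07 for Slc20a2. Enpp1 moved away from 0 in that fit, to 0.14 ± 0.07, and was not called (edgeR, adjusted p = 0.920). In that fit Slc20a1 stood at 0.48 ± 0.08 and Enpp3 at 0.71 ± 0.09, both still called. The mesenchyme and fibrocyte markers, 12 genes known for the connective tissue beside the epithelium, summed to 6330 CPM in wildtype library 2, between 5984 and 7329 CPM in the group. In labelled-knockout library 4 they summed to 6050 CPM, the highest of a group whose lowest was 5154 CPM, and the part of that tissue in the members' levels was not tested.

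**Figure D4:**
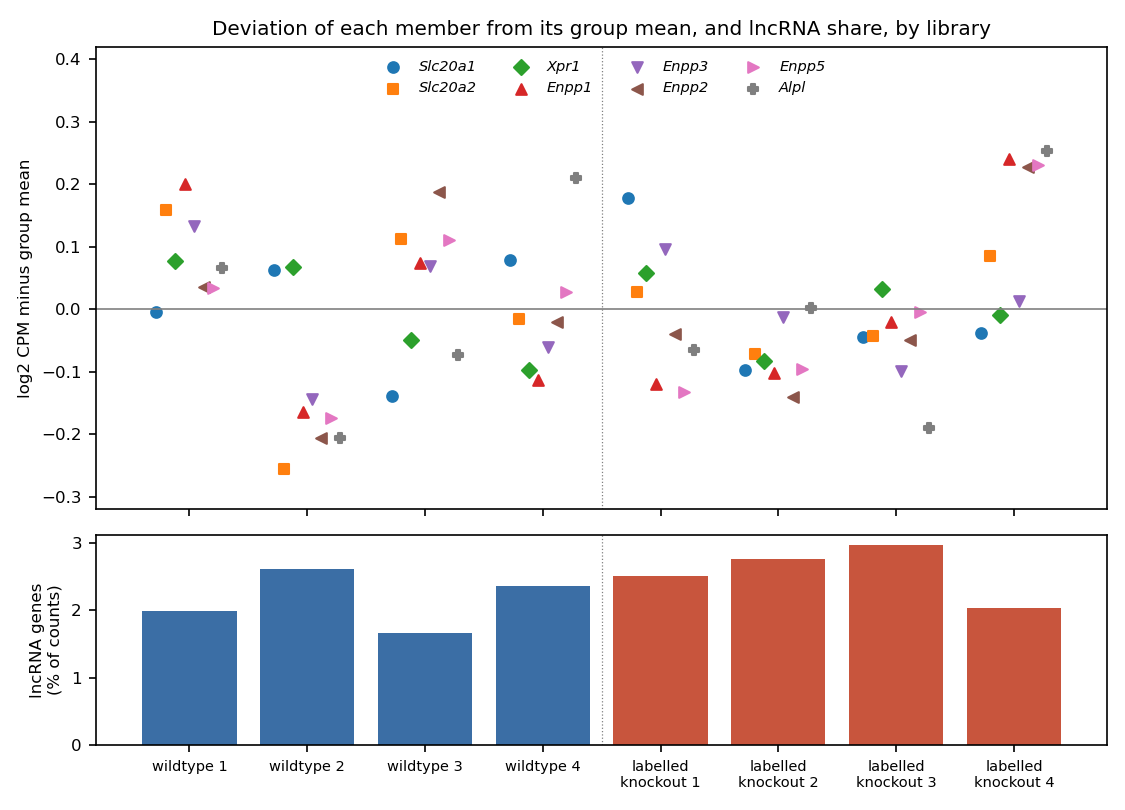
Upper panel, log2 CPM minus the group mean of each member (symbols) in each library. Lower panel, percent of counts in lncRNA genes in wildtype (blue) and labelled-knockout libraries (red). Wildtype library 2 has 6 members low and 2.61% lncRNA, and labelled-knockout library 4 has 4 members 0.23 to 0.25 above the mean and 2.03%.

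The spread within groups differed between the members. The within-group SD of log2 CPM of Enpp2 was larger than in 94.6% of tested genes of a like level (within 0.5 on the log2 scale), and that of Enpp1 larger than in 93.7%. For Enpp5 the figure was 89.4% and for Slc20a2 87.5%, against 62.9% for Alpl, 61.6% for Slc20a1, 42.7% for Xpr1 and 23.2% for Enpp3. Slc20a1 and Enpp3 were chosen by calls in these same libraries, and a small spread within groups favours a call. Their figures are therefore not read as a trait of these genes. For Enpp2 the observed spread in wildtype was 11.2% of the mean, while counting alone gives 1.27%.

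Genes whose levels followed a member most closely were sought among 12458 named genes by Pearson's r of log2 CPM over the 8 libraries, after removal of the group means. The highest r for Enpp2 belonged to Pld3 (0.99) and Vmac (0.99), for Enpp5 to Itih5 (0.99) and Igfbp5 (0.99), and for Enpp1 to Anxa11 (0.99) and Smim3 (0.99). Slc20a2 was followed by the ferritin light chain gene Ftl1 (0.99) and the copper chaperone gene Atox1 (0.98), and Alpl by Mgll (0.99) and Tunar (0.98). For Slc20a1 they were Rasl10b (0.99) and Ube2ql1 (0.98), for Enpp3 the genes Rhoj (0.99) and Id1 (0.98), and for Xpr1 Xrcc2 (0.95) and Pced1a (0.95). The 8 points share library composition, and the highest of so many values is high in any case.

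Other genes of the pathway, 70 in 4 lists, gave no call in edgeR's test. Of them 54 passed the filter, and 0 were called higher and 0 lower, beside 0.034% and 0.0583% of all tested genes. At an unadjusted p under 0.05 there were 4 (Abcc6, Acp5, Mgp and Fam20c), which is 7.41% of the 54, beside 7.55% of all tested genes. Log2 fold changes were below 0 for 37 of the 54 (68.5%), beside 50% of all tested genes, with a median of -0.05. This lean was not particular to the pathway: of 116 tested cell type markers, 88 (75.9%) were below 0, with a median of -0.12. DESeq2 called 1 gene lower, Mgp, and limma-voom 0.

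Phosphate transport and its control covered 13 tested genes of 21 listed, 6 above and 7 below 0, with a median of -0.01. The mitochondrial phosphate carrier gene Slc25a3 stood at 226 ± 15.5 (wildtype) against 211 ± 14.6 CPM (SD, 4 libraries each), and its log2 fold change was -0.10 ± 0.06 (SE). Kidins220, which encodes a scaffold that binds Xpr1, had -0.05 ± 0.05 and Ip6k1, a kinase gene that makes inositol pyrophosphates, -0.04 ± 0.05. Slc37a2, a sugar phosphate exchanger gene, had -0.20 ± 0.13. The transporter gene Abcc6, whose loss causes ectopic calcification, had 0.47 ± 0.16 and 0.73 ± 0.11 CPM, a log2 fold change of 0.66 ± 0.29 (SE) (edgeR, adjusted p = 0.647). The renal and intestinal phosphate cotransporter genes Slc34a1, Slc34a2 and Slc34a3 held 5, 42 and 62 counts over all 8 libraries together and did not pass the filter.

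Nucleotide and pyrophosphate phosphatases covered 16 tested genes of 21 listed, 6 above and 10 below 0, with a median of -0.08. The nucleoside diphosphatase gene Entpd6 had 23.7, 22.1, 23.7 and 23.2 CPM in wildtype libraries 1 to 4 and 22.0, 22.1, 21.3 and 19.9 CPM in the labelled-knockout libraries in the same order. Its groups did not overlap, beside 1.62% of all tested genes lower in that way, with a log2 fold change of -0.12 ± 0.06 (SE) that was not called, and wildtype library 2 and labelled-knockout library 2 were equal at the digits given. Entpd4 had -0.11 ± 0.06 and the pyrophosphatase genes Ppa1 and Ppa2 -0.13 ± 0.07 and 0.03 ± 0.07. Acp5, the acid phosphatase gene of bone-resorbing cells, had 1.86, 1.63, 0.44 and 0.51 CPM in wildtype libraries 1 to 4 and 0.30 to 0.76 CPM in the labelled-knockout libraries. Its wildtype libraries 1 and 2 stood above the other 6, and the log2 fold change of -1.09 ± 0.48 (SE) was not called. Enpp6, Enpp7 and the alkaline phosphatase genes Alpi, Akp3 and Alppl2 did not pass the filter.

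The lysophosphatidic acid list, receptors and lipid phosphatases that act downstream of autotaxin, had all 9 genes tested, 3 above and 6 below 0, with a median of -0.05. The receptor gene Lpar1 had 155 ± 11.8 CPM (wildtype) and 143 ± 17.0 CPM (labelled knockout; SD, n = 4 each), and its log2 fold change was -0.12 ± 0.08 (SE). As for Enpp2, labelled-knockout library 4 was the highest of its group for Lpar1, at 168 CPM against 131 to 138 CPM in the other 3. Lpar6 had 0.12 ± 0.09, and the lipid phosphatase genes Plpp1, Plpp2 and Plpp3 had -0.17 ± 0.08, -0.05 ± 0.07 and -0.05 ± 0.07.

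Mineral and calcification genes leaned lowest of the 4 lists, with 16 tested of 19 listed, 2 above and 14 below 0 and a median of -0.13. Their summed level was 747 to 810 CPM (wildtype) and 700 to 743 CPM (labelled knockout), without overlap. Much of this sum came from Fgfr1 and Pdgfrb, with means of 282 and 211 CPM in wildtype, and the groups of each of these genes overlapped. Mgp, which encodes matrix Gla protein, an inhibitor of calcification, had 21.4, 14.4, 20.5 and 16.3 CPM in wildtype libraries 1 to 4. It had 10.5, 12.1, 12.1 and 14.5 CPM in the labelled-knockout libraries in the same order, and library 4 of that group overlapped wildtype library 2. The log2 fold change was -0.56 ± 0.14 (SE) (edgeR, adjusted p = 0.354), and DESeq2 gave -0.57 ± 0.14 with an adjusted p of 0.0213. The kinase gene Fam20c, which acts on secreted matrix proteins, had 58.8 ± 4.93 and 50.6 ± 2.29 CPM (SD, n = 4 each), and its log2 fold change of -0.22 ± 0.07 (SE) was not called. Fgfr1 had -0.02 ± 0.05, and Pdgfrb and Jam2, like Slc20a2 and Xpr1 genes of familial brain calcification, had -0.10 ± 0.06 and -0.13 ± 0.06.

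**Figure D5:**
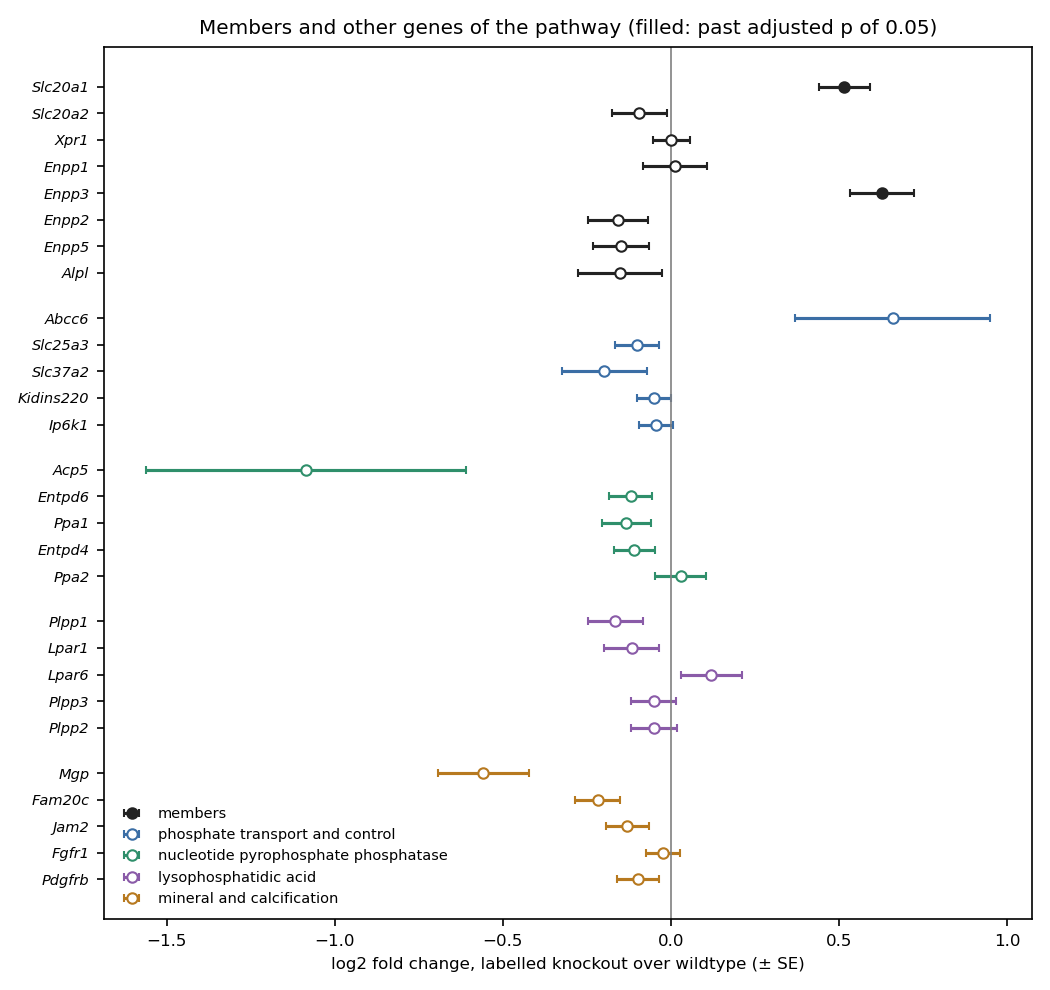
Log2 fold change of the labelled-knockout libraries over wildtype with SE (horizontal axis) for the members (black) and the named genes of the 4 pathway lists (colours), filled where the adjusted p was under 0.05. Slc20a1 at 0.52 and Enpp3 at 0.63 are the filled points, and most pathway genes lie slightly left of 0.

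Markers of connective tissue and bone had medians slightly below 0, which was not particular to them. Over the 16 marker lists, 88 of 116 tested genes (75.9%) had a log2 fold change below 0, beside 50% of all tested genes. The median of the 116 was -0.12. List medians were lowest for stria marginal cells (-1.21), melanocytes (-0.69) and red cells (-0.41), whose genes are among the 116. They were also below 0 for endothelium (-0.19), greater epithelial ridge (-0.16) and hair cells (-0.09), and above 0 only for supporting cells (0.02). The median log2 fold change was -0.12 for mesenchyme and fibrocyte markers (12 tested), -0.05 for osteoblast markers (7 tested of 9, with the osteocalcin genes Bglap and Bglap2 under the filter), -0.13 for cartilage (6) and -0.12 for pericytes (6). Summed osteoblast markers were 34.2 to 36.5 CPM (wildtype) and 30.6 to 35.5 CPM (labelled knockout). Summed cartilage markers were 9929 to 11398 and 8874 to 10451 CPM, and pericyte markers 571 to 628 and 541 to 581 CPM. All of these ranges overlapped, and their part in the values of Alpl, Enpp1, Enpp2 and Mgp was not tested. Over the 16 marker lists, 0 of 116 tested genes were called in either direction by edgeR and 0 by limma-voom, DESeq2 called 1 higher (Hey2) and 4 lower (Kcne1, Pmel, Car3 and Col1a1), and 28 (24.1%) had an unadjusted p under 0.05, beside 7.55% of all tested genes.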

How the data were processed

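The deposited tables give whole-number read counts of every gene in the 8 libraries, beside the authors' mean and SD of each group. Per the file headers, the deposited comparison lists for each gene a normalized mean (a signal), its log2 fold change and SE, and a Wald score. It closes with the p-value, raw and adjusted, per the file headers. Its signs are those of libraries labelled knockout over wildtype. Tools named in the submitters' processing notes are HISAT2 2.2.1, featureCounts, DESeq2, cutadapt 4.3 and FastQC 0.12.1, with the build GRCm39. The sources used here give no annotation, strand setting or treatment of multi-mapping reads.

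Of 41079 genes, 20581 were kept with filterByExpr (minimum count 10), and 8065 had no count. CPM values were scaled by TMM. Groups were compared by quasi-likelihood in edgeR 4.0.16 under R 4.3.3, with the labelled genotype as the only term. P-values were adjusted by Benjamini-Hochberg over every gene kept, and a gene is called under 0.05. DESeq2 1.42.0 and limma 3.58.1 were alternatives. The fit was tested on simulated data.

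The members, the 4 pathway and 16 marker lists (5 genes stand in both kinds), the tests and most of the other settings were chosen with earlier results of these data known. Named are the members, Prox1, Emx2, the 2 genes most correlated with each member (average log2 CPM at least 2), and from each pathway list the genes called, or else up to 3 with the smallest p, and the 3 of highest CPM. Others named were chosen after their values were seen. No pair of libraries of a group was alike within sampling noise (lowest chi-square per degree of freedom 10.7).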

Additional observations from a re-analysis of the deposited data

Results flagged for a closer look

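Of 60 groups of 4 libraries examined for a library far from the others, 1 held one, where chance gives about 1 in 20. For Fam20c, the secretory kinase gene, wildtype library 2 stood at 51.5 CPM, below the 60.4 to 62.1 CPM of its 3 companions. The same library was the lowest of its group for 6 of the 8 members.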

How the results depend on the processing

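The count of members called higher, 2 as reported, was 0 when wildtype 1 and 3 were dropped, 0 with stria score as covariate and 0 at an adjusted p threshold of 0.01, and between 0 and 1 with 1 library left out. It stayed at 2 with other scalings, other filters, DESeq2, limma-voom, the lncRNA share, the threshold of 0.1 and without 37 mitochondrial, 8 haemoglobin and 60 ribosomal RNA genes. Across all tested genes 7 were called higher and 12 lower. The counts higher were 12 with no filter, 36 with DESeq2, 2 when wildtype 1 and 3 were dropped, 1 under the stria score, 11 with the lncRNA share and 2 at the threshold of 0.01. The counts lower were 24 with no filter, 50 with DESeq2, 7 when wildtype 1 and 3 were dropped and 7 under the stria score. With 1 library left out, 2 to 7 were called higher (2 without wildtype 1 or labelled-knockout 2 or 3, 3 without wildtype 3 or labelled-knockout 1) and 8 to 20 lower (20 without labelled-knockout 4). Pathway genes called lower were 0, and 1 (Mgp) with DESeq2.

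Signs turned for members near 0, none of them called. Slc20a2 had a log2 fold change of 0.045 when wildtype 1 and 3 were dropped, 0.035 under the stria score and 0.025 with the lncRNA share. Xpr1 had -0.0043 with no filter, -0.0044 with DESeq2, -0.0075 with the lncRNA share, and between -0.031 and 0.028 with 1 library left out. Enpp1 lay between -0.076 and 0.082 with 1 library left out, and stood at 0.157 when wildtype 1 and 3 were dropped, 0.176 under the stria score and 0.144 with the lncRNA share. Of the others, single libraries moved Enpp2 to -0.092 (wildtype 3) or -0.241 (labelled-knockout 4), Enpp5 to -0.233 (labelled-knockout 4), and Alpl to -0.079 (wildtype 4), -0.092 (labelled-knockout 3) or -0.245 (labelled-knockout 4). Slc20a2 moved to -0.041, -0.175 or -0.059 (wildtype 1, 2 or 3). With wildtype 1 and 3 dropped, Enpp2 had -0.042 and Enpp5 -0.077, and under the stria score Enpp2 had -0.087 and Alpl -0.247. Causes of these changes were not tested.

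Same-numbered libraries were not treated as pairs, because the labels do not say whether they are. The correlations across genes of their deviations from the group means were 0.11, 0.21, -0.28 and -0.14 for numbers 1 to 4. These values cannot show whether a pairing exists, because library composition also moves them. With the number as a block, 0 members were called higher, and 3 genes were called higher and 12 lower in all. In that fit Slc20a1 had 0.51 ± 0.07 (SE) and Enpp3 0.63 ± 0.10, and Prox1 0.33 ± 0.05, with adjusted p-values of 0.0982, 0.111 and 0.159 in edgeR's quasi-likelihood test. Prox1 was also not called when wildtype 1 and 3 were dropped (edgeR, adjusted p = 0.478) or under the stria score (0.9998). Depth limits Alpl and Enpp3 most, with 230 to 368 and 263 to 423 counts per library.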
